A study of Mus musculus with 3 samples.

Results

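The 10 heat shock proteins described here, of the cytosol and the mitochondrial matrix, were followed across 3 epithelial lineages of the mouse stomach. They were the inducible 70-kDa chaperones Hspa1a and Hspa1b, the constitutive one Hspa8, the 110-kDa partner Hsph1, the J-domain proteins Dnaja1 and Dnajb1, the small heat shock protein Hspb9, the 90-kDa chaperone Hsp90aa1, and the mitochondrial chaperonin Hspd1 with its lid Hspe1. The members were taken by gene symbol, with all probe sets that name 1 gene, which gave 24 probe sets for these 10 genes out of 34958 probe sets for 18194 genes on the Affymetrix mouse array used. The lineages were acid-secreting parietal cells, enzyme-secreting zymogenic (chief) cells and pit cells, which make mucus near the surface. Each was measured on 1 array of RNA that had been pooled over 4 to 5 mice and amplified from 20 ng, after 3000 to 5000 cells had been cut out by laser-capture microdissection. The labels name no strain, genotype, age or treatment. Parietal and pit cells shared gastric units, while zymogenic cells came from other slides, so that slide and lineage cannot be told apart on that array. There were no replicates, so no difference given here has an error or a test, and fewer cells of a type and less RNA per cell cannot be told apart in such pools.

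Heat shock proteins bind unfolded proteins and help them fold, cross membranes or be destroyed. In the Hsp70 cycle a J-domain protein hands a client to Hsp70 and stimulates its ATPase, a 110-kDa protein such as Hsph1 exchanges the nucleotide, and some clients pass on to Hsp90. Under stress the transcription factor HSF1 binds arrays of alternating GAA and TTC units, called heat shock elements, and raises transcription of many of these genes. Hspa8 and Hsp90 are also abundant in unstressed cells.

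Values are linear intensities as deposited, 1 per probe set and array. Intensities of different probe sets are not comparable as levels, so each probe set is compared with itself across arrays. A detection floor of 23.3 was used, which is the 95th percentile of 78 receptor probe sets (olfactory and vomeronasal) on the array where that percentile was highest. Lower values were set to the floor, and a fold against such a value is given as at least that fold. When a gene had several probe sets above the floor, their log2 ratios scattered with an SD of 0.48, which describes measurement scatter within these arrays and not the spread between animals.

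The labelled lineages were set against their markers. Of 8 parietal markers, the number above the floor was 5 (parietal), 4 (zymogenic) and 2 (pit), with summed intensities of 5657, 1259 and 357 in the same order. Atp4b made up most of these sums on the first 2 arrays, at 4402, 793 and 102. Of the 5, 3 were highest on the parietal array. The other 2 were highest on the zymogenic array, Atp4a at 214, 261 and 12.5 and Kcnq1 at 29.1, 60.5 and 3.71. Of 7 pit markers, all were above the floor on both the parietal and the pit array, with sums of 19940, 128 and 14574. The 6 zymogenic markers summed to 503, 15211 and 62.6. The parietal array thus carried pit cell transcripts as well as parietal ones, and the zymogenic array carried parietal transcripts as well as zymogenic ones. Of the pit markers, Gkn1 and Gkn2, which make up most of the sum, were higher on the parietal than on the pit array, and the other 5 were higher on the pit array, with a median log2 ratio of -0.62 in parietal over pit over the 7. Stromal markers summed to 385, 285 and 159.9 and immune markers to 202, 161 and 79.9 in the same order, and Tff2, a trefoil factor of neck cells, stood at 402, 21.9 and 110.4. The 6 endocrine markers summed to 39.0, 955 and 65.0, and Hdc was listed at 0 on the parietal array. The spiked controls BioB and BioC averaged 303 (parietal), 711 (zymogenic) and 712 (pit). The 3′ over 5′ ratio was 26.1, 14.7 and 9.04 for the actin control and 8.84, 3.88 and 6.66 for the Gapdh control. The 5′ value of actin was under the floor on the zymogenic array, at 5.23, and that of Gapdh was under it on every array. The part of each of these in the results below was not tested.

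Of the 24 probe sets, 14 exceeded the floor somewhere, and the other 10 were under it on every array, the highest of them at 19.5. Of the 14, 5 exceeded it on the parietal array alone and could only be highest there. The other 9 exceeded it on the parietal and at least 1 further array, and 9 of 9 were highest on the parietal array, where 48.8% of 2828 such probe sets of all genes were. Hspa8 and Hsp90aa1 each gave more than 1 of these 9, so they are not 9 separate genes. Of the 10 genes, the number with a probe set above the floor was 8 (parietal), 5 (zymogenic) and 5 (pit). The plot of intensities by probe set shows the parietal value well above the others for Hspb9, Hspa8 and Hspd1, and a pit value close to the parietal one for Dnajb1.

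**Figure D1:**
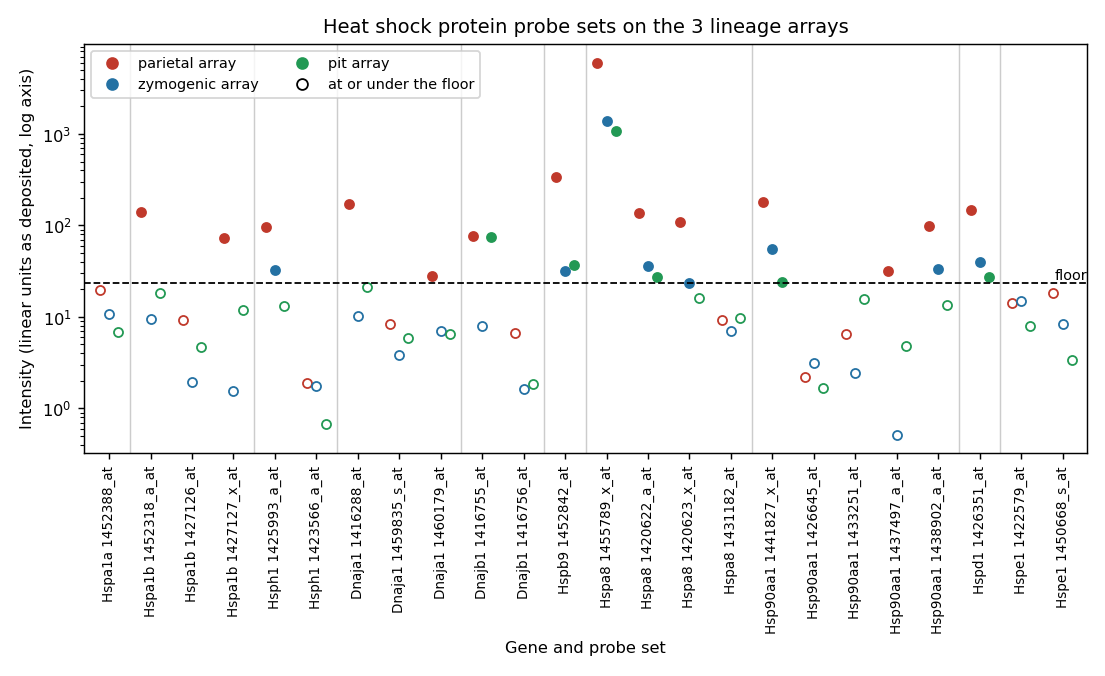
Intensities of all 24 probe sets of the 10 genes (linear units as deposited, log axis) on the parietal, zymogenic and pit arrays, 1 point per array, with open points at or under the floor of 23.3 (dashed line). The 14 probe sets above the floor somewhere, 5 of them on the parietal array alone, are highest on the parietal array, by little in Dnajb1, at 77.1 against 74.6 on the pit array.

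The inducible Hsp70 genes Hspa1a and Hspa1b lie near each other on chromosome 17 and code for nearly identical proteins, so that a probe set named for either may read both. Their sequences upstream of the start are shown because they are almost the same and hold the same heat shock element. Each is 250 bases long, ends just before the annotated start, lies on the minus strand of RefSeq's GRCm38.p6 table, and has a match to GAANNTTC in capitals. The Hspa1b sequence is at chr17:34959239-34959488 and that of Hspa1a at chr17:34972157-34972406.
Hspa1b: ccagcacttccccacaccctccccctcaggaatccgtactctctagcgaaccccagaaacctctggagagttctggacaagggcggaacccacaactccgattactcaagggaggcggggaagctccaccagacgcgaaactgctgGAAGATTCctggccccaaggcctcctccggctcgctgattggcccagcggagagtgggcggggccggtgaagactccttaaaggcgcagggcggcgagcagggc
Hspa1a: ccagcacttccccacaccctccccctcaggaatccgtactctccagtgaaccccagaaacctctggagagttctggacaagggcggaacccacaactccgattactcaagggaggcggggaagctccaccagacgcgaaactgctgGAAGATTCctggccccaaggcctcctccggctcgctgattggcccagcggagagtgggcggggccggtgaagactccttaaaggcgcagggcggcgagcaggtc
Of the 250 bases, 247 were identical, and the differences, written as the Hspa1b base, the position from 1 at the 5′ end and the Hspa1a base, were T44C, C47T and G249T. The heat shock element began 104 bases before the start in both.

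Hspa1b was above the floor on the parietal array alone. Its probe set 1452318_a_at stood at 139 (parietal) against 9.39 (zymogenic) and 18.2 (pit), at least 5.98-fold higher than either. A further probe set, 1427127_x_at, stood at 72.1 against 1.55 and 11.8, at least 3.10-fold higher. Both probe sets thus put the parietal array first and leave the other arrays without a measured level. The remaining one, 1427126_at, was under the floor throughout, at 9.20, 1.93 and 4.68. Hspa1a had 1 probe set, also under the floor on all 3 arrays, at 19.5 (parietal), 10.7 (zymogenic) and 6.76 (pit), so that no fold is given for it.

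Hspa8, the constitutive Hsp70 of the cytosol, was measured on all 3 arrays by several probe sets that gave like ratios. The probe set 1455789_x_at stood at 6033 (parietal), 1387 (zymogenic) and 1069.7 (pit). The parietal value was 4.35-fold that of the zymogenic and 5.64-fold that of the pit array. For 1420622_a_at the values were 138 (parietal) against 36.1 (zymogenic) and 27.03 (pit), which is 3.83-fold and 5.12-fold. The probe set 1420623_x_at had 109 against 23.5 and 16.1, which is 4.63-fold above the zymogenic and at least 4.67-fold above the pit array. Differences between the 3 probe sets in either ratio were within the scatter of 0.48 on the log2 scale. Zymogenic values were 1.30-fold and 1.34-fold the pit values in the first 2 of them, also within that scatter. Hspa8 has many processed pseudogenes, and probe sets ending in _x_at, unlike 1420622_a_at, hold probes that can bind other sequences. A further probe set, 1431182_at, was under the floor on every array.

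Hsph1, which exchanges the nucleotide of Hsp70 and holds unfolded clients, was likewise highest on the parietal array. The 250 bases before one of its 2 annotated starts are printed to show a heat shock element of the other orientation, TTCNNGAA, in capitals (minus strand, chr5:149636316-149636565, GRCm38.p6).
Hsph1: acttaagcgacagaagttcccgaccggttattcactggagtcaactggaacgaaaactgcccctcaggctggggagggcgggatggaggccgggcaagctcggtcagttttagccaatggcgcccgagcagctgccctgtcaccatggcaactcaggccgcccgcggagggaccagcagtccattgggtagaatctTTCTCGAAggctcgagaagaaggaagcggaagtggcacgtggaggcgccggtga
The match began 54 bases before this start and 33 bases before the other. The probe set 1425993_a_at stood at 95.6 (parietal) against 32.9 (zymogenic) and 13.2 (pit). That is 2.90-fold above the zymogenic array, which was itself above the floor, and at least 4.11-fold above the pit array, which was not. The other probe set, 1423566_a_at, was close to 0 on every array, at 1.88, 1.74 and 0.682, and shows nothing about the gene.

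The 2 J-domain proteins differed from each other on the pit array. Dnaja1, a farnesylated partner of Hspa8, carries a match to GAANNTTC, in capitals, upstream of 1 of its 3 annotated starts (plus strand, chr4:40722218-40722467, GRCm38.p6).
Dnaja1: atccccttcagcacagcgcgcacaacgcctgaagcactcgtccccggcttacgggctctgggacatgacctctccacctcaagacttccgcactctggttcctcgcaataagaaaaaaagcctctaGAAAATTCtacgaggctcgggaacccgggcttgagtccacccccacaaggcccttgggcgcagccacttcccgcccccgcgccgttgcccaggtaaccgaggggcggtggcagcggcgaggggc
Its probe set 1416288_at stood at 171 (parietal) against 10.1 (zymogenic) and 21.4 (pit), at least 7.33-fold higher than either. Another, 1460179_at, was highest on the same array at 28.1, against 7.01 and 6.48, but lay so near the floor that its bound was 1.21-fold, and 1459835_s_at was under the floor throughout. Dnajb1, the stress-inducible J-domain partner of the cytosolic Hsp70s, was the exception among the genes measured. Its probe set 1416755_at stood at 77.1 (parietal), 7.93 (zymogenic) and 74.6 (pit). The parietal value was at least 3.31-fold above the zymogenic one and 1.03-fold the pit value, and the zymogenic value was at least 3.21-fold lower than the pit value. Its other probe set, 1416756_at, was under the floor on every array. None of the upstream sequences of Dnajb1 held either heat shock element pattern.

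Hspb9, a small heat shock protein known mainly from testis, had the widest range of the 4 members above the floor on all 3 arrays. Its only probe set stood at 339 (parietal) against 31.8 (zymogenic) and 37.3 (pit), all above the floor. The parietal value was 10.7-fold and 9.09-fold the others, which were themselves within 0.23 of each other on the log2 scale. With no other probe set this value has no check within the array, and its upstream sequence held no match to either pattern. The genes with a profile nearest to that of Hspb9, by Euclidean distance between floored and centred log2 values over the 3 arrays, were Sgk1, Socs7, Entpd7, Igtp and Ifi27l2b, at distances of 0.17 to 0.33. All 5 were under the floor on the zymogenic array, and all but Ifi27l2b were under it on the pit array too. The distances thus rest on values set to the floor, and over 3 arrays likeness of this kind is a description only.

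Hsp90aa1, the inducible cytosolic Hsp90, was also at least 2-fold higher on the zymogenic than on the pit array by 1 probe set. The probe set 1441827_x_at stood at 181 (parietal), 55.7 (zymogenic) and 24.3 (pit), the last just above the floor. The parietal value was 3.24-fold and 7.43-fold the others, and the zymogenic value was 2.29-fold the pit value. For 1438902_a_at the values were 99.3, 33.1 and 13.4, which is 3.00-fold above the zymogenic and at least 4.27-fold above the pit array. There the zymogenic array was at least 1.42-fold above the pit array. The probe set 1437497_a_at was at 32.1 against 0.515 and 4.80, and its bound against both was 1.38-fold. The remaining 2, 1426645_at and 1433251_at, were under the floor on all arrays, at 2.19, 3.17 and 1.68 and at 6.47, 2.41 and 15.5.

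Hspd1 and Hspe1 form the chaperonin of the mitochondrial matrix, a barrel and its lid, and their genes lie head to head on chromosome 1. The 250 bases before the start of Hspe1 (plus strand, chr1:55087898-55088147, GRCm38.p6) are printed because 215 of them also lie upstream of an annotated start of Hspd1 on the other strand. The capitals mark 4 alternating units in a row, TTC, GAA, TTC and GAA with 2 bases between neighbours.
Hspe1: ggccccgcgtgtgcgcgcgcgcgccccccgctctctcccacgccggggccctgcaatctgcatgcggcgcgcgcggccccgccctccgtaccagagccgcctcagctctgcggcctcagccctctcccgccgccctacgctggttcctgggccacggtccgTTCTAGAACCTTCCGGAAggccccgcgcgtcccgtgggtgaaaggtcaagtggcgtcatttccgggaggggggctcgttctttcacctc
Hspd1 stood at 148 (parietal) against 39.5 (zymogenic) and 27.3 (pit), by its only probe set, and all were above the floor. The parietal value was 3.76-fold and 5.43-fold the others, and the zymogenic value was 1.44-fold the pit value. Hspe1 was under the floor in both of its probe sets. They gave 14.4 (parietal), 15.0 (zymogenic) and 8.02 (pit) for 1422579_at, and 18.3, 8.43 and 3.42 for 1450668_s_at. The gene that shares the upstream sequence therefore had no measured level to set beside that of Hspd1.

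The members were then counted beside all genes, each gene by its probe set of highest mean. In parietal over zymogenic, 8 of the 8 members above the floor on either array were at least 2-fold higher, where 24% of 3596 genes were, and 0 were at least 2-fold lower, where 8.79% were. In parietal over pit, 7 of 8 were at least 2-fold higher, where 14.4% of 3441 genes were, and 0 were lower, where 7.7% were. A gene above the floor on the parietal array alone of a pair can only come out higher. This holds for Hspa1b and Dnaja1 in both comparisons, for Dnajb1 over zymogenic and for Hsph1 over pit, so these counts support nothing by themselves. When the probe sets of each gene were averaged instead, 7 of 8 were higher in parietal over zymogenic, and Dnajb1, at 0.85 on the log2 scale, was not.

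The count was therefore repeated over genes that exceeded the floor on each array of a pair. There 5 of 5 members were at least 2-fold higher and 0 lower in parietal over zymogenic, where 27.9% and 7.75% of 1497 genes were. In parietal over pit 4 of 5 were higher, those other than Dnajb1, and 0 lower, where 16.1% and 9.27% of 1984 genes were. In zymogenic over pit 1 of 4 was higher, Hsp90aa1, and 0 lower, where 11.6% and 22.4% of 1277 genes were. The 2 parietal comparisons share the parietal array and are not independent of each other. The members were chosen with earlier results of these data known, so these counts describe the list and test nothing.

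Between the zymogenic and pit arrays the members were divided. Of 6 compared, 1 was at least 2-fold higher in zymogenic over pit, Hsp90aa1, where 11.8% of genes were, and 1 was at least 2-fold lower, Dnajb1, where 21.3% were. These shares are close to those of genes at large. The median log2 ratio over the members compared was 2.02 in parietal over zymogenic, 2.54 in parietal over pit and 0.44 in zymogenic over pit, against 0.29, 0.08 and -0.13 over all genes. By probe set, 12 of 14 were at least 2-fold higher and 0 lower in parietal over zymogenic, where 24.3% and 7.93% of all named probe sets were. In the comparison with the pit array, 11 of 14 were higher and 0 lower, where 14.9% and 6.92% were. These counts too include probe sets above the floor on the parietal array alone. Over probe sets above the floor on each array of a pair, 8 of 8 were higher and 0 lower in parietal over zymogenic, where 29.9% and 6.91% were. Against the pit array it was 5 of 6 and 0, where 16.7% and 8.26% were. Of 9 probe sets compared in zymogenic over pit, 1 was higher, where 11.1% were, and 1 lower, where 20.9% were. Of the 5 above the floor on both of these arrays, 1 was higher and 0 lower, where 11.1% and 22.7% were. The plot of ratios shows 7 members to the right of the grey bands in parietal over pit, with Dnajb1 near the median of all genes. In parietal over zymogenic Hsph1, at 1.54, and Hsp90aa1, at 1.70, lay inside the band, below the 90th percentile of all genes at 1.71.

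**Figure D2:**
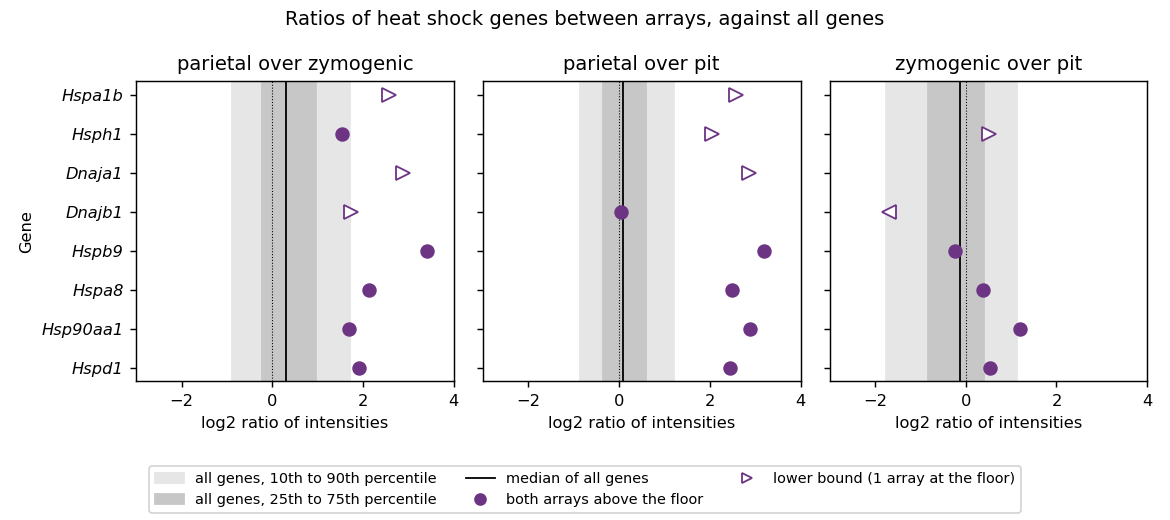
Log2 ratio of intensities for the 8 genes above the floor somewhere, in parietal over zymogenic, parietal over pit and zymogenic over pit, with filled circles where both arrays were above the floor and open triangles for bounds. Grey bands run between the 10th and 90th (pale) and the 25th and 75th percentile (dark) of all genes compared, and Dnajb1, at 0.05, is the only member inside them in parietal over pit, while Hsph1 and Hsp90aa1, at 1.54 and 1.70, are inside them in parietal over zymogenic.

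The scaling between arrays bears on these values, as the parietal array was brighter for many genes. Over all genes measured on each array of a pair, the median log2 ratio was 0.47 in parietal over zymogenic, 0.09 in parietal over pit and -0.16 in zymogenic over pit. Over the 5, 5 and 4 members measured in the same way, the medians were 1.91, 2.50 and 0.45, higher than these shifts by 1.44, 2.41 and 0.62. Quantile normalization, which gives all arrays the same distribution, brought the shifts to 0.02, -0.10 and 0.06, and the medians of the members measured on both arrays exceeded them by 1.12, 2.15 and 0.76. It also changed the share of all genes at least 2-fold higher and lower in parietal over zymogenic to 13.9% and 14.6%. Scaling to the BioB and BioC controls gave shifts of 1.41, 1.10 and -0.18, which the members exceeded by 1.73, 2.60 and 0.56. With it, 41.8% of all genes were higher and 2.79% lower in parietal over zymogenic, and 37.5% and 0.91% in parietal over pit. Under quantile normalization Hsph1 was at 0.97 in parietal over zymogenic, just short of 2-fold, and Dnajb1 was at -0.23 in parietal over pit. With the spiked controls Dnajb1 was at 1.28 there, past 2-fold.

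**Figure D3:**
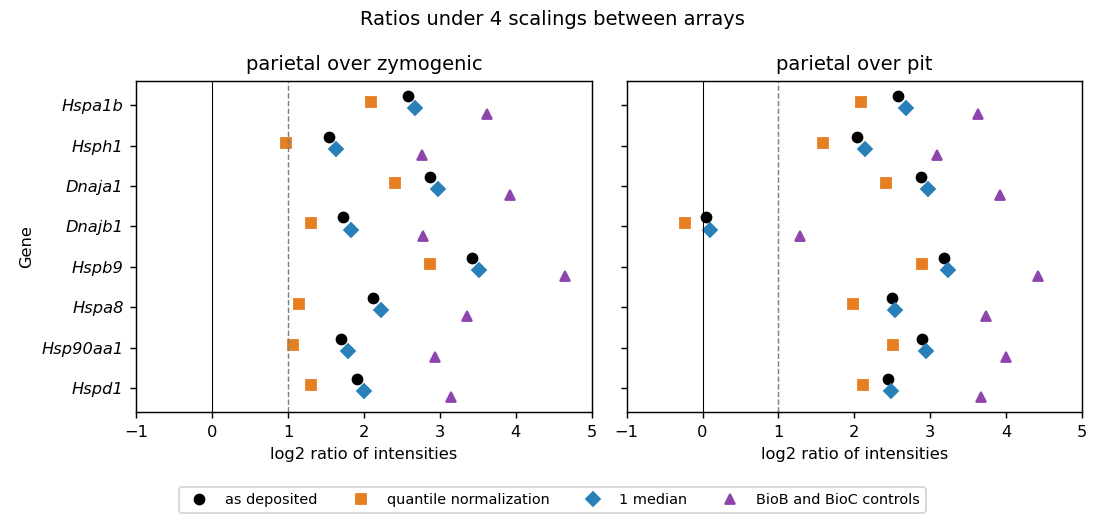
Log2 ratios of the 8 genes in parietal over zymogenic and parietal over pit under 4 scalings between arrays, with a dashed line at 2-fold. As deposited, the values of Hspa1b, Dnaja1, Dnajb1 over zymogenic and Hsph1 over pit are bounds set by the floor. All ratios but that of Dnajb1 over pit and that of Hsph1 over zymogenic after quantile normalization lie to the right of the line in every scaling, while Dnajb1 over pit runs from -0.23 to 1.28.

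Genes that work with the members were described from lists. Of the heat shock factors, Hsf2 and Hsf4 were under the floor on every array, at 7.40 (parietal), 15.6 (zymogenic) and 5.77 (pit) and at 15.4, 1.46 and 6.64 in the same order, and Hsf1 was not analysed here. Of the 7 other cytosolic Hsp70, Hsp110 and Hsp90 genes in the table, only Hspa4, a relative of Hsph1, was above the floor. It stood at 182 on the parietal array against 50.4 and 79.9, which is 3.61-fold above the zymogenic and 2.28-fold above the pit array. Among 9 other small heat shock proteins, 3 were above the floor somewhere and none was 2-fold higher on the parietal array. None could have been, so this count shows nothing. Hspb1 and Cryab exceeded the floor on the zymogenic array alone. Hspb8 exceeded it on the parietal array alone, at 23.6, with a bound of 1.02-fold. In parietal over pit only 1 gene, Hspb8, was compared. The shares of all genes higher were 24% in parietal over zymogenic and 14.4% in parietal over pit. Cryab, the alpha-B crystallin, was above the floor on the zymogenic array alone, with 2.48 (parietal), 49.96 (zymogenic) and 5.65 (pit).

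Other J-domain proteins and the co-chaperones of Hsp70 and Hsp90 were counted in the same way. Of all genes, 24% were higher and 8.79% lower in parietal over zymogenic, and 14.4% and 7.7% in parietal over pit. Of the J-domain proteins, 0 of 7 compared were at least 2-fold higher in parietal over zymogenic and 0 of 8 in parietal over pit. Over zymogenic, Dnaja2, Dnajb2 and Dnajc2 had bounds of 1.06-fold, 1.18-fold and 1.56-fold, too near the floor to reach 2-fold. The same holds for Dnaja2 and Dnajc2 over pit. Dnajb6 exceeded the floor on the pit array alone and could not come out higher there. These counts of 0 thus say little by themselves. Dnajc8, a nuclear J-domain protein linked to splicing, was highest in the zymogenic sample, with 35.4 (parietal), 254 (zymogenic) and 24.4 (pit). Dnajb2 was highest in the pit sample, with 27.6 (parietal), 10.6 (zymogenic) and 57.7 (pit). Of the co-chaperones, 0 of 9 were at least 2-fold higher in parietal over zymogenic and 1 was lower, Unc45a, a partner of Hsp90 in myosin folding. Against the pit array, 2 of 9 were higher, Ahsa1 and Chordc1, which both bind Hsp90. All 3 are named after their values were seen. Stip1, St13 and Cdc37l1 were above the floor on the parietal array alone, with bounds of 1.41-fold, 1.11-fold and 1.80-fold. They could not reach 2-fold in either comparison. Bag2 was under the floor on the parietal array and could not come out higher. The count of 0 over zymogenic is limited by this. The median log2 ratio of the co-chaperones was 0.49 over zymogenic and 0.43 over pit.

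The TRiC chaperonin folds actin and tubulin in the cytosol, and prefoldin delivers clients to it. Of 14 genes for their subunits, 6 did not exceed the floor anywhere, and of prefoldin Pfdn6 alone was above it. The other 8 were at least 2-fold higher in parietal over pit, where 14.4% of all genes were, with a median log2 ratio of 1.65. Of these, 5 were above the floor on the pit array, and the ratios of the others are bounds. In parietal over zymogenic 4 of 8 were higher and 1 was lower, where 24% and 8.79% of all genes were. The median log2 ratio there was 0.97, against 0.29 over all genes. For the subunits Tcp1, Cct2, Cct4 and Cct6a, the parietal value exceeded the zymogenic and the pit value by 2-fold or more. Cct2 stood at 249 (parietal) against 104 (zymogenic) and 67.9 (pit). Cct3 was highest in the zymogenic sample, with 174 (parietal), 759.5 (zymogenic) and 55.7 (pit).

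Mitochondrial chaperones and proteases were mixed. In parietal over pit 3 of 7 were at least 2-fold higher and 1 was lower, where 14.4% and 7.7% of all genes were. Only 2 of the 7 were above the floor on the pit array, Grpel1, which was higher, and Grpel2, which was lower. The others, among them Hspa9, were above it on the parietal array and could only come out higher. In parietal over zymogenic 2 of 7 were higher and 1 was lower, where 24% and 8.79% were. The share higher there was close to that of genes at large. Hspa9, the Hsp70 of the matrix, stood at 94.2 (parietal) against 43.3 (zymogenic) and 20.5 (pit). Grpel1, its nucleotide exchange factor, stood at 158 against 63.0 and 70.9. The relative Grpel2 was highest in the pit sample, with 31.1 (parietal), 13.6 (zymogenic) and 84.5 (pit). The protease Lonp1 was highest in the zymogenic sample, with 28.5, 61.6 and 16.1 in the same order. The plot of list shares sets these counts beside all genes.

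**Figure D4:**
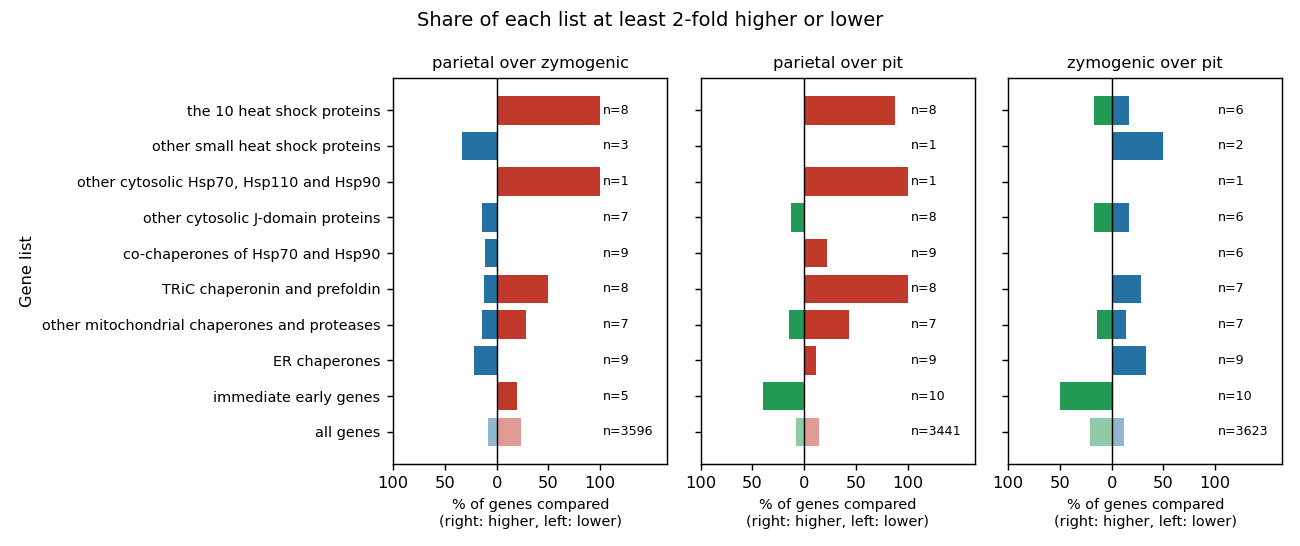
Share of the genes compared in each list that were at least 2-fold higher (right) or lower (left) in parietal over zymogenic, parietal over pit and zymogenic over pit, with the number compared beside each bar and all genes in the bottom row. The 10 heat shock proteins and the TRiC and prefoldin list stand at 7 of 8 and 8 of 8 in parietal over pit, where 14.4% of all genes were higher. In each of these lists 5 genes were above the floor on the pit array, and the others could only come out higher. Bars count genes above the floor on either array of a pair. In other lists too, some genes could move in 1 direction only or not reach 2-fold.

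The upstream sequences of the members were searched on both strands for heat shock elements. The patterns were GAANNTTC and TTCNNGAA, each its own reverse complement, and longer ones of 3 alternating GAA and TTC units in a row with 2 bases between neighbours, which contain the short ones. Sequences were taken from RefSeq's table of GRCm38.p6, which held 8 of the 10 members, in 13 windows of 250 bases. It held none for Hspa8 and Hsp90aa1. Short matches were found for 6 of the 8, namely Hspa1a, Hspa1b, Hsph1, Dnaja1, Hspd1 and Hspe1, and long ones for Hspd1 and Hspe1. The short and long matches of Hspd1 and Hspe1 are the same bases, and the Hspa1a and Hspa1b windows are nearly identical. The 6 genes are thus not 6 separate sites. Of all 32851 windows in the table, 12.8% held a short match and 0.466% a long one, and of all 27025 genes 14.5% had a short match in at least 1 window. Among genes with a match, Hspa1b, Hsph1, Dnaja1 and Hspd1 were measured on the parietal array, while Hspa1a and Hspe1 were under the floor. Hspb9, with the largest parietal ratios among members above the floor on all 3 arrays, and Dnajb1 had no match in these windows. A match is a description of the letters and does not show that a factor binds there.

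**Figure D5:**
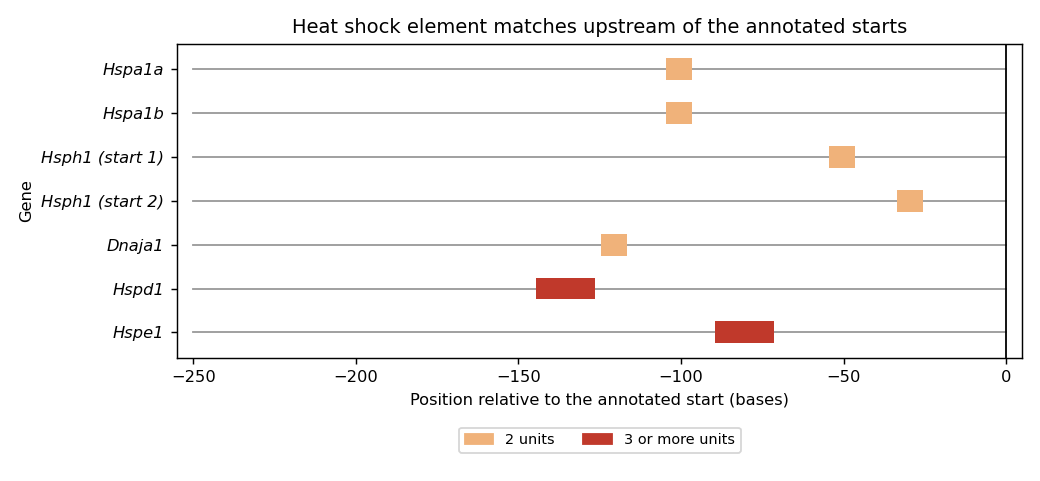
Positions of heat shock element matches in the windows of 250 bases upstream of annotated starts, in bases relative to the start, for the windows with a match. Pale bars mark the short patterns and dark bars the long ones, which Hspd1 and Hspe1 share on opposite strands. Matches lie between 144 and 26 bases before the start.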

How the data were processed

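The deposited values are intensities on a linear scale for 45101 probe sets on 3 Affymetrix mouse arrays, 1 per lineage. The design text speaks of total RNA and the molecule label of nuclear RNA. How the authors summarised probes, corrected background and scaled arrays is not given in the sources used here, and no further scaling was applied. Amplified RNA is often short at its 5′ end, which lowers probe sets placed there. Of the probe sets, 34958 name 1 gene in the platform's annotation, and 34754 of these were matched to RefSeq symbols through the gene identifier. Probe sets naming several genes were left out. Of several probe sets for a gene, the one with the highest mean stood for it, and genes above the floor on at least 1 array of a pair were compared by their log2 ratio and counted at 2-fold. The number of arrays limits the precision, and there is no test. The members and gene lists were chosen with earlier results of these data known. Genes of a list were named where at least 2-fold above or below both other arrays, or as stated. Alternatives were quantile normalization, scaling to 1 median and to the BioB and BioC controls, other floors, the floor as a pseudocount, other choices of probe set, and thresholds of 1.5-fold and 4-fold. The work used numpy 2.4.6, pandas 2.3.3 and matplotlib 3.10.9 under Python 3.11.15, and the ratios were tested on simulated data.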

Additional observations from a re-analysis of the deposited data

How the results depend on the processing

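With 1 array per lineage, no array could be left out, and no paired analysis was possible because no lineage has a second sample. Of 138 recomputed counts and medians, 110 stayed within 1.5 times the count or within 0.48 of the median. The 110 include the counts of members lower in both parietal comparisons, which were 0 in every setting. A member above the floor on the parietal array alone could not come out lower, so these counts say little about stability. No member ratio of at least 2-fold changed sign. Quantile normalization gave a median log2 ratio of 1.30 in parietal over zymogenic, and the BioB and BioC controls gave 3.03 there and 3.65 in parietal over pit. Each applies its own shift between arrays and has its own floor. With the controls the floor was 21.4, and 10 genes were compared in place of 8, as Hspa1a and Hspe1 were included. Those medians are thus over a different set of genes. In parietal over pit the median was 2.03 with the floor as a pseudocount and 1.61 when a gene's probe sets were averaged. Counts of genes and of probe sets at least 2-fold higher were 1 and 1 in both parietal comparisons with the floor at the 99th percentile (949.8), where Hspa8 alone was still compared. At 4-fold, 4 genes and 5 probe sets were higher in parietal over zymogenic. Without probe sets ending in _s_at or _x_at, 7 of 10 probe sets were higher in parietal over pit. The few calls in zymogenic over pit were the least stable. With the floor at the 90th percentile, 2 genes and 3 probe sets were higher there. The count higher was 0 genes and 0 probe sets at 4-fold, with the floor at the 99th percentile, as a pseudocount and without the _s_at and _x_at probe sets, and 0 genes with the mean over probe sets. The count lower was 0 genes at 4-fold, under the 99th-percentile floor and with the mean over probe sets, and 0 probe sets in the first 2 of these. The cause was not tested. Values near the floor limit Hspa1a and Hspe1, which have no ratio with the values as deposited and the floor of 23.3. With the floor at the 90th percentile (11.0), their log2 ratios were 0.82 and -0.07 in parietal over zymogenic and 0.82 and 0.38 in parietal over pit.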

Other observations

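Chaperones of the endoplasmic reticulum, which fold secreted and membrane proteins, were above the floor somewhere for 9 of 14 genes. In parietal over zymogenic 0 of 9 were at least 2-fold higher, where 24% of all genes were, and 2 were lower, where 8.79% were, with a median log2 ratio of -0.15. The other 7 were less than 2-fold apart in that comparison. Hyou1, the 110-kDa partner of the Hsp70 of this compartment, stood at 39.8 (parietal), 162 (zymogenic) and 42.0 (pit). Dnajc3, a J-domain protein of the same compartment, stood at 53.9, 128 and 44.5 in the same order. Hspa5, the Hsp70 itself (BiP), was at 268 (parietal), 297 (zymogenic) and 118 (pit).

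Immediate early genes, which are transcribed within minutes of many stimuli, were above the floor somewhere for 10 of 12 genes. Of the 10, Jun, Egr1, Ier2, Atf3 and Dusp1 exceeded it on the pit array alone and could only be highest there. In parietal over pit 0 of 10 were at least 2-fold higher, where 14.4% of all genes were, and 4 were lower, where 7.7% were, and these 4 were above the floor on both arrays. Gadd45b, a stress-induced regulator of growth arrest, stood at 33.5 (parietal), 13.2 (zymogenic) and 128 (pit). Fos, a subunit of the factor AP-1, stood at 27.9, 2.87 and 70.1 in the same order. Of the heat shock proteins, Dnajb1 was the member whose pit value came near its parietal one.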
